A study of Homo sapiens with 16 samples.

Results

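PEG10, SGCE and 5 other imprinted genes (PEG3, MEST, H19, MEG3 and GRB10) were followed through a time course of 17β-estradiol (E2) treatment in 2 human cell lines, Ishikawa (endometrial adenocarcinoma) and T-47D (breast ductal carcinoma). The 7 genes are the rows of that name among the 26364 genes of the count tables, which cover 16 bulk RNA-seq libraries. They were chosen by the late rise of PEG10 counts after E2, and the question was whether its neighbour SGCE or other imprinted genes rose with it. The changes of PEG10 are therefore given as a description with no test. In both lines, cells were kept in hormone-deprived medium and then received 10 nM E2 for 0, 2, 4 or 8 h, with 2 replicates at each time point, and the 0 h cells were vehicle treated. Each condition rests on 1 cell line, and the contrasts after 2, 4 and 8 h in a line share its 0 h libraries. In bulk RNA, fewer expressing cells and less RNA per cell cannot be told apart. Nothing says that replicates came from separate cultures, so p-values measure the spread between these libraries, which may be technical. Expression is given as raw counts per gene or as CPM (counts relative to the scaled library size), and a change as a log2 fold change with its standard error (SE) from edgeR's quasi-likelihood model.

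Imprinted genes are transcribed mainly from the allele of 1 parent, and many lie in clusters in which a methylated control region sets the parental pattern for several neighbours at once. PEG10 and SGCE form such a pair on human chromosome 7: both are expressed from the paternal allele and they lie head to head on opposite strands with overlapping starts. PEG10 encodes a Gag-like protein that descends from a Ty3/gypsy retrotransposon and is known for its role in the placenta, and SGCE encodes epsilon-sarcoglycan, a membrane protein of the dystrophin-associated complex. Both lines studied here carry the estrogen receptor, which E2 turns into an active transcription factor.

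Libraries held 41177912 to 64148903 counts. All 5 epithelial markers reached 1 CPM in both lines, as did 4 of 5 breast luminal markers in T-47D and 5 of 5 endometrial markers in Ishikawa. GATA3, a luminal transcription factor, had 0 to 4 counts per library in Ishikawa, and PAX8, which marks the endometrial lineage, had 0 to 2 in T-47D. Immune and endothelial markers summed to at most 4.06 and 8.59 CPM in any library. The 5 fibroblast markers summed to 153 to 276 CPM in Ishikawa and 77.6 to 102 CPM in T-47D, and COL1A1, a collagen gene, made up most of it (150 to 269 and 71.8 to 92.2 CPM). PDGFRB had 0 to 8 counts per library over both lines, and DCN and LUM 0 to 6 in Ishikawa. Of the fibroblast markers that passed the filter, 2 of 2 fell in Ishikawa at 4 h and at 8 h, and 3 of 4 fell in T-47D at 8 h. Of the luminal markers, 2 of 3 rose in Ishikawa at 4 h and 3 of 3 at 8 h. In T-47D, 2 of 5 luminal markers rose and 2 fell at 4 h, and 1 rose and 1 fell at 8 h. Of 5 epithelial markers in T-47D, 3 rose and 1 fell at 4 h and at 8 h. Of all tested genes, 14.3% and 22.1% changed in either direction at 4 h and 8 h in Ishikawa, and 21.5% and 29.7% in T-47D. The part of these changes in the results below was not tested. The 4 late libraries of Ishikawa did not separate by their time label. The 4 h replicate 2 and 8 h replicate 1 libraries differed less from each other (root mean square log2 difference of 0.329 over genes) than the replicates of 4 h (0.391) or of 8 h (0.353). Only 2 of 15787 genes passed an adjusted p of 0.05 between 8 h and 4 h in Ishikawa. Late results in this line are therefore also given with the 4 libraries taken as 1 late group. This was done for PEG10, the tested members, and the neighbours of PEG10 and imprinted genes called.

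Of the 7 genes, 4 had enough counts to pass the filter in each line: PEG10, SGCE and GRB10 in both, MEST in Ishikawa and H19 in T-47D. All of these but PEG10 were tested. Filters on low counts left out PEG3 and MEG3 in both lines.

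The mean PEG10 level of the 2 libraries more than doubled in Ishikawa cells by 4 h of E2 and rose less in T-47D cells. In Ishikawa, PEG10 had 647 and 624 CPM in the 0 h libraries and 783 and 780 CPM in those of 2 h. It reached 1591 and 1055 CPM after 4 h, then 1096 and 1601 CPM after 8 h. All 6 treated libraries lay above both 0 h libraries, and the late libraries fell into a high pair (4 h replicate 1 and 8 h replicate 2) and a lower pair that crossed the time labels. The log2 fold change against 0 h was 0.31 (SE 0.154) after 2 h, 1.06 (SE 0.155) after 4 h and 1.08 (SE 0.155) after 8 h. With the late libraries as 1 group it was 1.07 (SE 0.136), a fold of 2.10. PEG10 ranked 247 by log2 fold change among the 15787 genes tested at 8 h.

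In T-47D cells, PEG10 had 243 and 216 CPM before E2, against 233 and 224 CPM after 2 h, so that these 4 libraries overlapped. It reached 279 and 258 CPM after 4 h, then 317 and 302 CPM after 8 h, and all 4 late libraries lay above the earlier ones without overlap between 4 h and 8 h. The log2 fold changes against 0 h were -0.01, 0.22 and 0.43 (SE 0.0533 at 8 h), and PEG10 ranked 1404 of 15594 genes at 8 h. The log2 difference in response, T-47D minus Ishikawa, was -0.30 after 2 h, -0.83 after 4 h and -0.65 after 8 h (SE 0.199 each). Before treatment, PEG10 was 2.77-fold lower in T-47D than in Ishikawa.

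SGCE starts 247 bases from PEG10 and did not share its rise in either line. In GRCh37, PEG10 lies at chr7:94285637-94299007 on the plus strand and SGCE at chr7:94153516-94285884 on the minus strand. Their first exons overlap by 219 bases on opposite strands, which is 3.27% of the PEG10 exon length, and whether counting used the strand is not given in the sources used here. In Ishikawa, SGCE had 36.4 and 28.7 CPM before E2, 31.3 and 31.1 CPM after 2 h, 30.3 and 33.1 CPM after 4 h, then 31.6 and 29.3 CPM after 8 h. All 6 treated libraries lay between the 0 h replicates. In T-47D, SGCE had 32.3 and 28.8 CPM before E2, 28.8 and 28.1 CPM after 2 h, 28.4 and 24.4 CPM after 4 h, then 28.8 and 25.3 CPM after 8 h. Here 4 of the 6 treated libraries lay below both 0 h libraries, and the highest value of the line was a 0 h library.

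**Figure D1:**
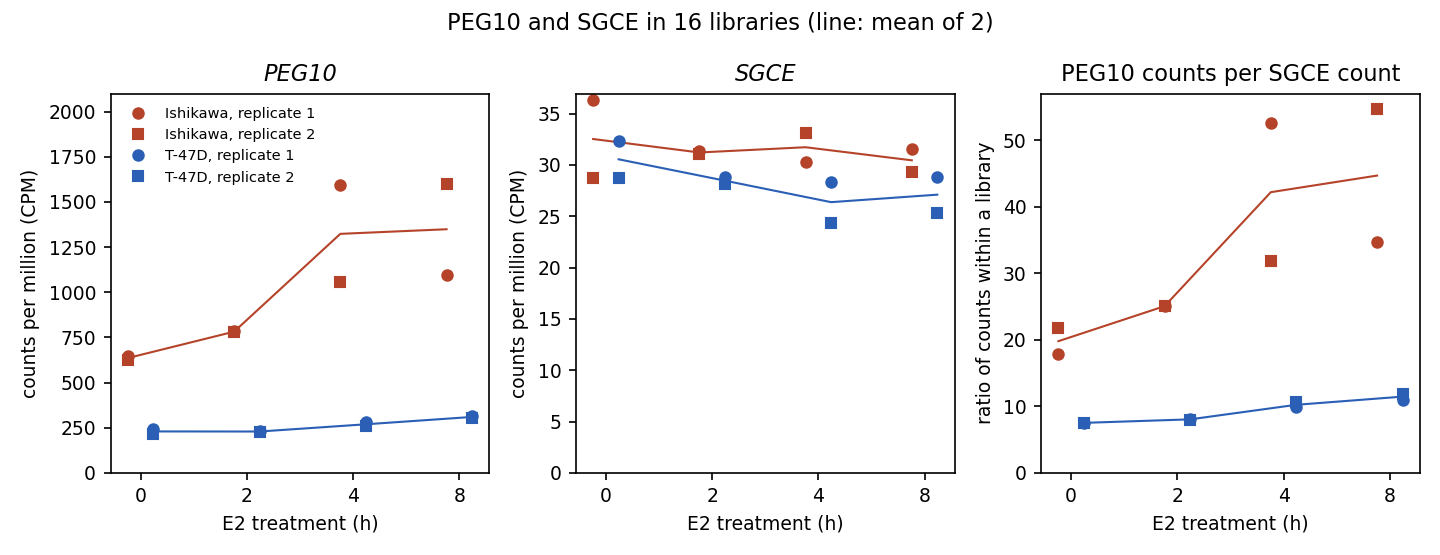
PEG10 and SGCE in CPM, and PEG10 counts per SGCE count, against hours of E2 in Ishikawa (red) and T-47D (blue), where each point is 1 library, circles and squares are replicates 1 and 2, and lines join the means of 2 libraries. PEG10 reached 1055 to 1601 CPM in the late Ishikawa libraries and 258 to 317 in the late T-47D libraries, while SGCE stayed between 24.4 and 36.4 CPM in all 16.

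No contrast of SGCE with 0 h passed edgeR's test with Benjamini-Hochberg adjustment over all genes. In Ishikawa, the log2 fold change of SGCE was -0.05 (SE 0.0978, adjusted p = 0.847) at 2 h, against a background of 4.35% of tested genes called. It was -0.03 (SE 0.0983, adjusted p = 0.883) after 4 h and -0.10 (SE 0.0977, adjusted p = 0.523) after 8 h, where 14.3% and 22.1% of tested genes were called. The 95% interval at 8 h ran from -0.30 to 0.11, so a rise of SGCE as large as that of PEG10 was outside it. With the late libraries as 1 group, SGCE stood at -0.06 (SE 0.0832, adjusted p = 0.624), where 25.7% of tested genes were called. The direction at each time point rested on 0 h replicate 1, the highest SGCE library: without it, the values were 0.13, 0.15 and 0.08, and none passed.

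In T-47D, SGCE stood at -0.11 (SE 0.0868, adjusted p = 0.496) after 2 h, -0.22 (SE 0.0860, adjusted p = 0.0856) after 4 h and -0.17 (SE 0.0865, adjusted p = 0.148) after 8 h. The backgrounds of called genes were 9.3%, 21.5% and 29.7%. The 95% interval at 8 h was -0.36 to 0.01. The value at 4 h passed the threshold without T-47D 4 h replicate 1 (-0.33, adjusted p = 0.038) and without a filter on low counts (-0.21, adjusted p = 0.0418), so SGCE was near the threshold for a lower level at this time point. The response of SGCE was not shown to differ between the lines, with log2 differences of -0.04, -0.17 and -0.08 (adjusted p = 1, 0.584 and 0.836) and a 95% interval of -0.38 to 0.22 at 8 h. From 2 h to 4 h the step of SGCE was 0.02 in Ishikawa and -0.11 in T-47D (adjusted p = 0.949 and 0.669), where 2.39% and 3.4% of tested genes were called. From 4 h to 8 h it was -0.07 and 0.04 (adjusted p = 0.986 and 0.865), where 0.0127% and 3.42% were called.

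The ratio of the 2 genes within a library does not depend on library scaling. In Ishikawa, PEG10 had 17.8 and 21.8 counts per SGCE count before E2, 25.01 and 25.1 after 2 h, 52.5 and 31.8 after 4 h, then 34.7 and 54.6 after 8 h. In T-47D the ratio was 7.50 and 7.51 before E2, 8.09 and 7.97 after 2 h, 9.84 and 10.6 after 4 h, then 11.0 and 11.9 after 8 h. The ratio rose without overlap from each T-47D time point to the next, and in Ishikawa from 0 h to 2 h and from 2 h to the late libraries. Before treatment the SGCE level was not shown to differ between the lines (log2 difference of -0.09, SE 0.102, adjusted p = 0.424, 95% interval -0.30 to 0.12), at a contrast where 81.9% of tested genes were called. That value depended on single libraries: without Ishikawa 0 h replicate 2 the difference was -0.25 (adjusted p = 0.035), and without replicate 1 it was 0.11. Per kilobase of the canonical transcript, PEG10 had 246 CPM at 0 h in Ishikawa and 88.7 in T-47D, the second level of 54 imprinted genes ranked in each line after GNAS (516 and 1057). SGCE had 17.4 and 16.3 CPM per kilobase, ranks 10 and 9. The PEG10 level depends on the length used, since its merged exons (6689 bases) are longer than its canonical transcript (2585 bases).

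Other genes around PEG10 were compared in the same way, from CALCR, with its start site at -1081595 bases relative to that of PEG10 along the chromosome, to DYNC1I1 at 1116181 bases. Of 16 listed genes, 12 were tested in each line, and 11 without PEG10. Over all tested genes, 2.61%, 7.66% and 12% rose in Ishikawa after 2, 4 and 8 h, and 4.9%, 11.1% and 15.4% in T-47D. In Ishikawa 0 of 11 neighbours passed at 2 h or 4 h by edgeR's test, and only CASD1, a sialic acid O-acetyltransferase gene with its start site at -147106 bases, passed at 8 h (0.29, SE 0.0827, adjusted p = 0.0216). CASD1 lost that call without Ishikawa 0 h replicate 2 or without either 8 h library. With the late libraries as 1 group, CASD1 stood at 0.24 (adjusted p = 0.0275). In T-47D 2 of 11 rose at 2 h, 3 of 11 at 4 h and 3 of 11 at 8 h, and 0 fell.

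The T-47D neighbours that rose were GNG11, CALCR and BET1, of which BET1, at -651943 bases, lies closest to PEG10. GNG11, which encodes a G protein gamma subunit, had 42.8 and 32.7 CPM before E2, 46.6 and 46.8 CPM after 2 h, 58.3 and 54.7 CPM after 4 h, then 73.04 and 73.6 CPM after 8 h. All of its treated libraries lay above the 0 h libraries, and its log2 fold change was 0.30, 0.58 and 0.96 (SE 0.0825, adjusted p = 8.99e-08 at 8 h). The 2 h call of GNG11 was lost without T-47D 0 h replicate 2 or either 2 h library. CALCR, the calcitonin receptor gene, had 7 and 16 counts before E2, against 36 to 71 counts in the 6 treated libraries (log2 fold change of 2.24, SE 0.393, adjusted p = 0.000277 at 8 h). The 2 h call of CALCR (2.01) was lost without T-47D 2 h replicate 1. BET1, a vesicle transport SNARE gene, rose by 0.41 at 4 h and 0.33 at 8 h (adjusted p = 0.00687 and 0.0192), the first lost without 4 h replicate 1 and the second without 0 h replicate 2 or 8 h replicate 2.

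The other neighbours tested passed in neither line. PPP1R9A, also imprinted and with its start site at 250877 bases, had log2 fold changes of 0.12, 0.09 and 0.11 in Ishikawa and 0.10, -0.01 and 0.21 in T-47D (adjusted p of 0.203 to 0.981). CASD1 in T-47D was at 0.06, 0.20 and -0.06. The values of the paraoxonase genes PON2 (both lines) and PON3 (T-47D) ranged from -0.13 to 0.14. TFPI2 and COL1A2 in Ishikawa, GNGT1 in T-47D, and PDK4 and DYNC1I1 in both lines did not pass at any time point. PON1 and ASB4 were too low to test in either line.

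**Figure D2:**
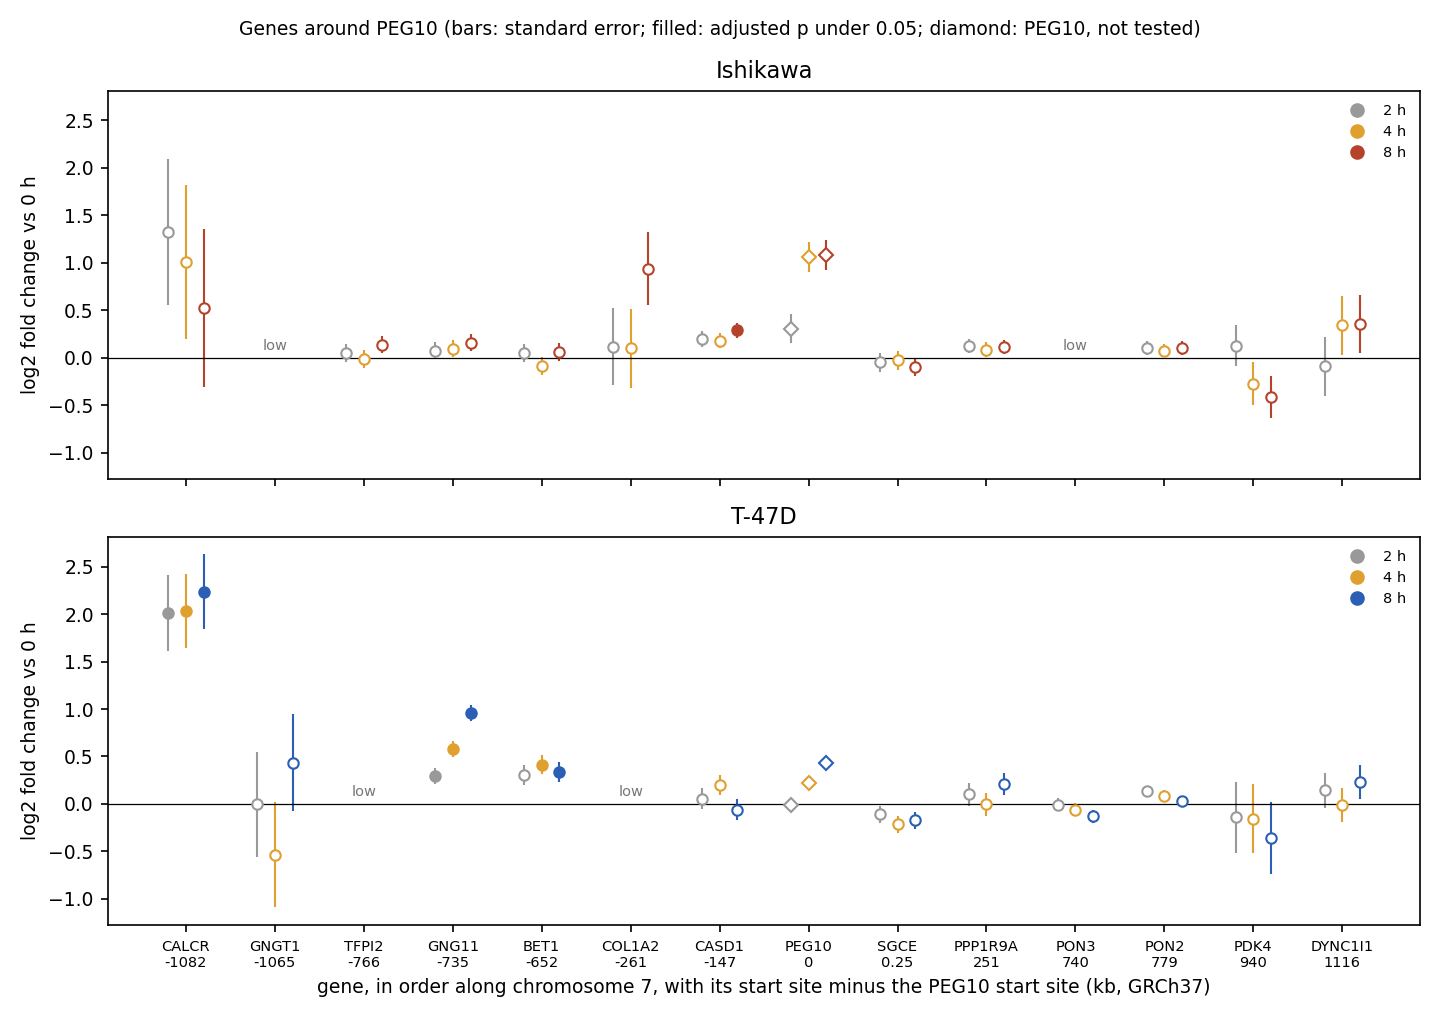
Log2 fold change against 0 h at 2, 4 and 8 h (bars, SE) for the genes around PEG10 in order along chromosome 7, with the distance of each start site from that of PEG10 in kb, in Ishikawa (top) and T-47D (bottom). Filled circles passed an adjusted p of 0.05, diamonds are PEG10 (not tested) and "low" marks genes left out for low counts: PEG10 stood at 1.08 and SGCE at -0.10 at 8 h in Ishikawa, and GNG11 and CALCR at 0.96 and 2.24 in T-47D.

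GRB10, an adaptor that binds the insulin and IGF1 receptors and dampens their signals, was the member that rose with E2 beside PEG10 at a high level, and it did so in T-47D. GRB10 had 74.9 and 78.8 CPM before E2 in T-47D, 92.8 and 98.2 CPM after 2 h, 108 and 116 CPM after 4 h, then 116 and 115 CPM after 8 h. Every treated library lay above the 0 h libraries, and the 2 h libraries lay below the late ones. The log2 fold change was 0.30 (SE 0.0523, adjusted p = 0.000611) after 2 h, 0.54 (SE 0.0518, adjusted p = 5.52e-07) after 4 h and 0.59 (SE 0.0520, adjusted p = 1.28e-07) after 8 h, and these calls held without any 1 library. GRB10 had most of its rise by 4 h: the step from 2 h to 4 h was 0.24 (adjusted p = 0.013, lost without either 2 h library or without 4 h replicate 2) and the step from 4 h to 8 h was 0.05 (adjusted p = 0.726). PEG10 in T-47D had steps of -0.01, 0.24 and 0.21 over the same intervals.

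In Ishikawa, GRB10 had 106.7 and 106.5 CPM before E2, 101 and 104 CPM after 2 h, 121 and 110 CPM after 4 h, then 112 and 121 CPM after 8 h. The late libraries lay above the 0 h libraries, and the higher of them were the same 4 h replicate 1 and 8 h replicate 2 in which PEG10 was high. How many of all tested genes had this order was not counted. The log2 fold changes were -0.04, 0.12 and 0.13 (adjusted p = 0.779, 0.215 and 0.161), and 0.12 (adjusted p = 0.0948) with the late libraries as 1 group. The response was higher in T-47D than in Ishikawa by 0.37 after 2 h, 0.43 after 4 h and 0.46 after 8 h on the log2 scale (adjusted p = 0.0158, 0.00234 and 0.000929), where 2.67%, 6.03% and 10% of tested genes differed. The difference at 2 h was lost without either Ishikawa 2 h library, T-47D 0 h replicate 1 or T-47D 2 h replicate 2. At 0 h GRB10 was 1.39-fold lower in T-47D than in Ishikawa (log2 difference of -0.47, SE 0.0594, adjusted p = 3.53e-07), and after 8 h the libraries of both lines lay between 112 and 121 CPM. PEG10 stood at a higher fold in Ishikawa, where it was also higher before E2.

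Since GRB10 and H19 are the tested members whose counts rose past the threshold, the bases before their RefSeq start sites were searched for the letters of the estrogen response element (ERE), the palindrome to which the receptor binds. It consists of GGTCA and TGACC with 3 bases between them. Windows of 300 bases were given for 4 of the 7 genes (GRB10, H19, MEG3 and MEST). None of their windows held the full ERE, which is in 20 of 35116 RefSeq windows (0.057%). The single arm GGTCA, on either strand, is in 37.4% of all windows. The 2 stretches below are the 250 bases before a start of H19 and of GRB10 in GRCh38.p14, from RefSeq, both on the minus strand and read 5′ to 3′, with each arm in capitals. The H19 stretch lies at chr11:2001267-2001516 and the GRB10 stretch at chr7:50732354-50732603, and the latter is shown because it is the GRB10 window of 5 with 2 arms.
H19: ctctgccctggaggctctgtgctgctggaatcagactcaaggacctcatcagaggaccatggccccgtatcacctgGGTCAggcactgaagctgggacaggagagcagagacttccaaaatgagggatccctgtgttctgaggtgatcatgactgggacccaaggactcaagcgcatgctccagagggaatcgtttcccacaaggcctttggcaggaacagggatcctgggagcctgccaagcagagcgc
GRB10: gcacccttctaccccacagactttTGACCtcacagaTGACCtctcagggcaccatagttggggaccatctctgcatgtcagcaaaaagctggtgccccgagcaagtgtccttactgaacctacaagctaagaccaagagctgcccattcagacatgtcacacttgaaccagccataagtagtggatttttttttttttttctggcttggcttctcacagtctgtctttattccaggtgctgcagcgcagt
The H19 stretch holds GGTCA, and the GRB10 stretch holds TGACC at 2 places in the same orientation, so they do not form the palindrome. A match of 5 letters is common at this length and is given as a description of the sequence. The other 4 GRB10 windows differ in base composition, from 33.7% to 81.7% G and C, and the 2 most upstream hold 44 and 49 CpG dinucleotides.

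H19, a long noncoding RNA expressed from the maternal allele, was present at a low level in T-47D and rose there. It had 33 and 45 counts before E2, 58 and 53 counts after 2 h, 82 and 91 counts after 4 h, then 92 and 95 counts after 8 h. Each treated library exceeded both 0 h libraries. The log2 fold change was 0.42 (SE 0.276, adjusted p = 0.395) after 2 h, 0.72 (SE 0.264, adjusted p = 0.0612) after 4 h and 1.03 (SE 0.261, adjusted p = 0.00587) after 8 h, so that only the last passed, a fold of 2.04. That call was lost without T-47D 0 h replicate 1 (0.78, adjusted p = 0.0668), the library with the lowest H19 count. The 4 h value passed with the 4 h and 8 h libraries as 1 group (0.88, adjusted p = 0.015). In Ishikawa H19 had 2 to 11 counts per library and was not tested, and no change was detectable at this depth.

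MEST, which is expressed from the paternal allele and encodes a protein of the alpha/beta hydrolase fold, was abundant in Ishikawa and nearly silent in T-47D. In Ishikawa it had 175 and 163 CPM before E2, 166 and 163 CPM after 2 h, 190 and 178 CPM after 4 h, then 182 and 179 CPM after 8 h. The late libraries lay above the 0 h libraries by a small margin, and how many of all tested genes did so was not counted. The log2 fold changes were -0.03, 0.13 and 0.09 (SE 0.0567 at 4 h, adjusted p = 0.821, 0.15 and 0.263), and 0.11 (adjusted p = 0.102) with the late libraries as 1 group, and none passed. In T-47D MEST had 0 counts in 4 libraries and 3 or 4 counts in the other 4. At 0 h it would be 2357-fold lower in T-47D than in Ishikawa with the T-47D libraries, both at 0, set to 3 counts each. That setting takes each count as 1 independent fragment, which need not hold here. The MEST exons share 228 bases with COPG2 and 484 with MESTIT1 on the opposite strand.

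**Figure D3:**
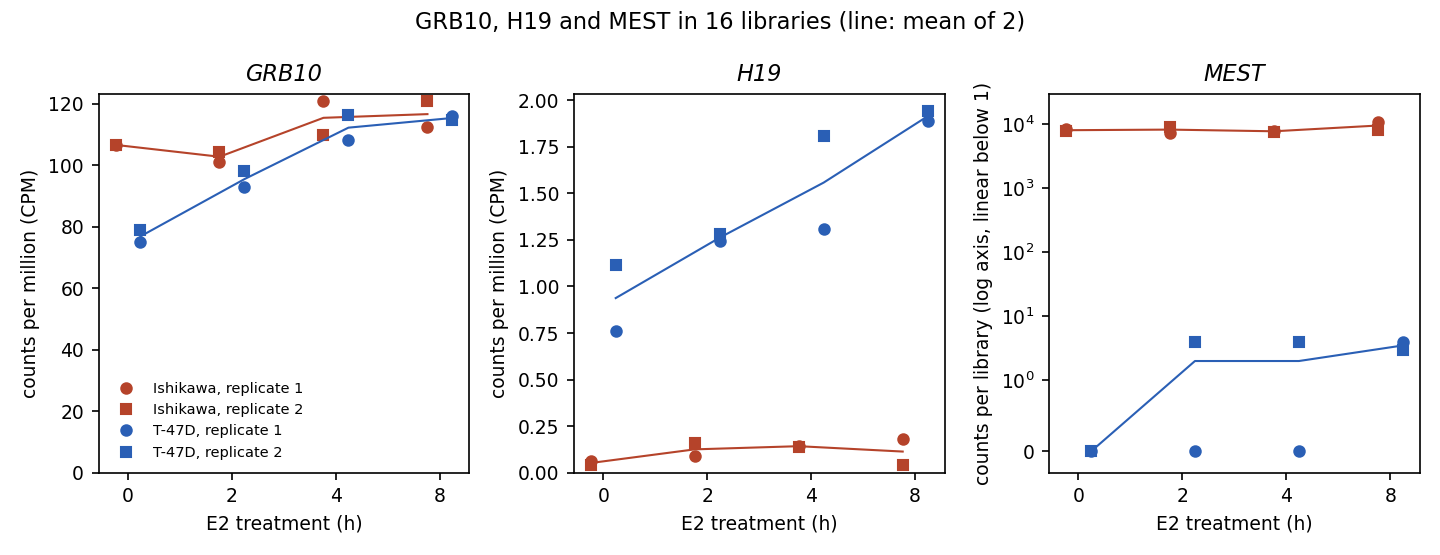
GRB10 and H19 in CPM, and MEST in counts on a log axis that is linear below 1, against hours of E2 in Ishikawa (red) and T-47D (blue), with each point 1 library and lines joining the means of 2. GRB10 rose from 74.9 and 78.8 CPM to 116 and 115 in T-47D, H19 from 0.762 and 1.11 to 1.89 and 1.94 CPM in T-47D, and MEST separated the lines at every time point.

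PEG3 and MEG3 gave no usable signal. PEG3, a zinc finger gene expressed from the paternal allele, had 2 counts in Ishikawa 4 h replicate 2 and 0 in the other 15 libraries, and 12.9% of its exon length is shared with ZIM2 on the same strand. MEG3, a long noncoding RNA expressed from the maternal allele, had 0 counts in all 16. A count of 0 allows up to 3 counts, or 0.0479 to 0.0742 CPM depending on the library, for counting error only.

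The wider imprinted list held 58 genes, of which 57 were in the tables and 32 besides PEG10 were tested in each line. In Ishikawa, 1 of 32 rose and 0 fell after 2 h, 1 rose and 2 fell after 4 h, and 2 rose and 3 fell after 8 h. These are 3.12%, 9.38% and 15.6% of the list, against 4.35%, 14.3% and 22.1% of all tested genes, of which 1.74%, 6.6% and 10.1% fell. In T-47D, 2 rose and 1 fell after 2 h, 6 rose and 3 fell after 4 h, and 7 rose and 3 fell after 8 h. These are 9.38%, 28.1% and 31.2%, against 9.3%, 21.5% and 29.7% of all tested genes, of which 4.4%, 10.4% and 14.3% fell. The median log2 fold change of the list at 8 h was -0.02 in Ishikawa and 0.06 in T-47D, beside -0.00882 and 0.003 for all tested genes. With 32 genes, and no set test run, the called shares of the list were not shown to differ from those of all tested genes in either line.

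**Figure D4:**
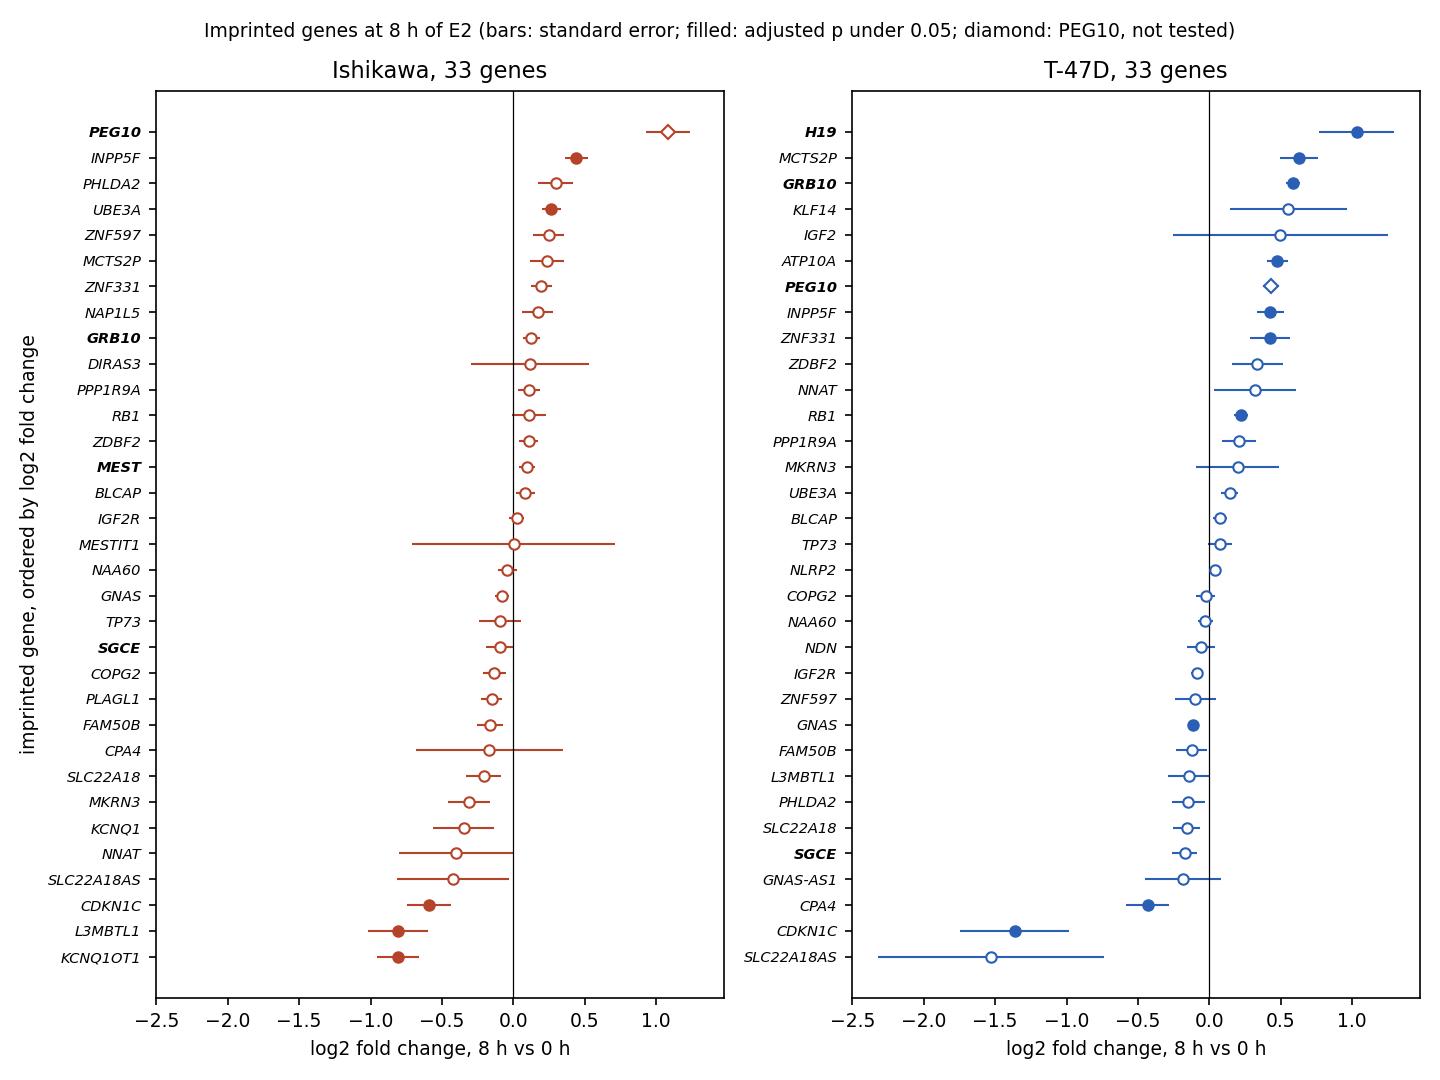
Log2 fold change at 8 h against 0 h (bars, SE) of the 33 imprinted genes tested in Ishikawa (left) and in T-47D (right), ordered by value, with members in bold, filled circles for an adjusted p under 0.05 and a diamond for PEG10 (not tested). PEG10 stood first in Ishikawa at 1.08 with INPP5F next at 0.44, and in T-47D H19 stood first at 1.03 with PEG10 at 0.43.

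INPP5F, an inositol phosphatase gene with an imprinted transcript, rose in both lines, as did UBE3A. In Ishikawa it had 40.1 and 37.4 CPM at 0 h and 47.7 to 56.9 CPM in the 6 treated libraries, with log2 fold changes of 0.35, 0.40 and 0.44 (adjusted p = 0.0183, 0.00353 and 0.00142). In T-47D INPP5F rose by 0.37 at 4 h and 0.43 at 8 h (adjusted p = 0.00942 and 0.00206). Its rise in Ishikawa at 4 h and at 8 h, and in T-47D at 8 h, held without any 1 library. UBE3A, a ubiquitin ligase gene, rose by 0.26 at 8 h in Ishikawa and by 0.23 at 4 h in T-47D.

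In Ishikawa, 3 imprinted genes fell. KCNQ1OT1, the noncoding RNA of the KCNQ1 domain, fell by 0.64 at 4 h and 0.81 at 8 h (adjusted p = 0.0093 and 0.00157), from 11.1 and 13.5 CPM at 0 h to 6.40 and 7.75 at 8 h. CDKN1C, a cyclin-dependent kinase inhibitor gene of the same domain, fell by 0.64 and 0.59 (adjusted p = 0.0133 and 0.0131), and by 1.36 in T-47D at 8 h (adjusted p = 0.0115), where it had 36 and 37 counts before E2, against 11 and 22 counts after 8 h. L3MBTL1, on chromosome 20, fell by 0.81 at 8 h in Ishikawa. Of the 9 calls of the list in Ishikawa, 3 held in every fit without 1 library, those of INPP5F at 4 h and 8 h and of KCNQ1OT1 at 8 h. The other 6 were each lost without Ishikawa 0 h replicate 2. INPP5F was also lost without either 2 h library, CDKN1C and KCNQ1OT1 at 4 h without 4 h replicate 1, CDKN1C at 8 h without 8 h replicate 2, and UBE3A and L3MBTL1 without 8 h replicate 1. The directions did not change in any of these fits. With the late libraries as 1 group, edgeR's test gave 0.42 for INPP5F, -0.73 for KCNQ1OT1 and -0.61 for CDKN1C (adjusted p = 0.000372, 0.00061 and 0.00245). UBE3A stood at 0.22 and L3MBTL1 at -0.69 in the same fit (adjusted p = 0.0134 and 0.0104).

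In T-47D, ATP10A, a phospholipid flippase gene, rose at all times (0.38, 0.56 and 0.48, adjusted p = 9.27e-05 at 8 h), from 16.1 and 15.98 CPM before E2 to 22.4 in both 8 h libraries, and had 0 counts in all 8 Ishikawa libraries. PHLDA2 lies in the chromosome 11 cluster of KCNQ1OT1 and CDKN1C and limits placental growth. It fell by 0.71 at 2 h and 0.55 at 4 h (adjusted p = 0.000534 and 0.00254), from 8.08 and 7.97 CPM to 4.82 and 5.05 at 2 h, and stood at 7.505 and 7.004 CPM after 8 h. The 4 h call of PHLDA2 was lost without T-47D 4 h replicate 1. RB1, the retinoblastoma gene, rose by 0.21 and 0.22 in the late contrasts, MCTS2P by 0.47 and 0.63, and ZNF331 rose by 0.42 at 8 h. GNAS, the most abundant gene of the list, fell by 0.12 at both late times, from 1973 and 1947 CPM to 1869 and 1750 at 8 h, CPA4 fell by 0.43 at 8 h, and GNAS-AS1 fell by 0.87 at 4 h. GNAS and GNAS-AS1 share 1127 exon bases on opposite strands, 30.8% of the exon length of the latter. IGF2R, with GNAS and PEG10 among the 3 most abundant per line (453 CPM in Ishikawa and 413 in T-47D at 0 h), passed at no time. Of the 22 calls in T-47D, 10 held in every fit without 1 library: all those of GRB10 and ATP10A, PHLDA2 at 2 h, and INPP5F, MCTS2P and RB1 at 8 h. The calls of H19, PHLDA2 at 4 h, GNAS, ZNF331, CPA4, GNAS-AS1, CDKN1C, UBE3A and the 4 h calls of INPP5F, MCTS2P and RB1 did not. CPA4 lost its call without any of the 4 libraries compared, GNAS at both times and ZNF331 and MCTS2P without T-47D 0 h replicate 1, and CDKN1C, GNAS-AS1, INPP5F, UBE3A and RB1 without 0 h replicate 2. At 4 h, leaving out replicate 1 of that time point ended the calls of UBE3A, RB1, GNAS and GNAS-AS1, and leaving out replicate 2 those of INPP5F, MCTS2P and GNAS. At 8 h, replicate 1 ended those of CDKN1C and ZNF331, and replicate 2 those of GNAS and ZNF331.

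Before E2 the lines differed in which imprinted genes they expressed. At 0 h, 14 of 40 imprinted genes tested over both lines were higher in T-47D and 19 lower, besides PEG10, which is 82.5% of the list against 81.9% of all genes (39.5% higher and 42.4% lower). Some were near silent in 1 line. ATP10A, with 0 counts in Ishikawa, would be 254-fold lower there than in T-47D with each silent library set to 3 counts. NLRP2, a gene of the oocyte and early embryo, had 7364 and 7031 counts in T-47D and 0 and 2 in Ishikawa, and KCNQ1OT1 had 524 and 645 counts in Ishikawa and 2 and 0 in T-47D. The response to E2 differed between the lines for 2, 2 and 1 of these 40 after 2, 4 and 8 h, namely GRB10 at each time and PHLDA2 at 2 h and 4 h. These are 5%, 5% and 2.5% of the list, against 2.67%, 6.03% and 10% of all tested genes.

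Genes related to the members by function were counted from 4 further lists, against 12% of all tested genes that rose and 10.1% that fell at 8 h in Ishikawa, and 15.4% and 14.3% in T-47D. Of 14 and 11 tested genes with a Gag-like origin other than PEG10, 0 rose and 1 fell at 8 h in Ishikawa, and 2 rose and 2 fell in T-47D. RGAG4 (now RTL5) fell in both lines (-0.32 and -0.81 at 8 h), FAM127A fell by 0.16 in T-47D, and ARC, an immediate-early gene whose protein forms capsids, rose by 3.02 at 2 h in T-47D (adjusted p = 0.000149), where PNMA1 rose by 0.26. Of 12 and 10 tested genes of the sarcoglycan complex, 1 rose in Ishikawa at 8 h (SNTB2, 0.38, adjusted p = 0.00171) and 2 fell in T-47D (DAG1, -0.28, adjusted p = 1.02e-05, and DTNA, -0.18), and DMD fell by 0.27 at 4 h in Ishikawa. The called share at 8 h was 7.14% and 36.4% for the Gag-like list and 8.33% and 20% for the sarcoglycan list in Ishikawa and T-47D, against 22.1% and 29.7% of all tested genes. Calls of RGAG4 at 8 h, FAM127A, DTNA and DMD were lost without 0 h replicate 2 of their line, among other libraries. ARC was low in T-47D, with 0.116 CPM per kilobase of its canonical transcript at 0 h. Its 8 h value of 1.91 ranged from 1.06 to 2.45 without 1 library, and the call was lost without T-47D 8 h replicate 2. The 2 h value of ARC ranged from 2.69 to 3.51.

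Among the GRB adaptors and their receptors, GRB10 and GRB7 moved in opposite directions in T-47D. GRB7 fell by 1.05 at 8 h in T-47D (SE 0.102, adjusted p = 3.78e-07) and by 0.75 in Ishikawa (adjusted p = 0.00129), and GRB14 fell by 0.48 in T-47D at 8 h, a call lost without T-47D 0 h replicate 2 or either 8 h library. IGF1R, a receptor that GRB10 binds, rose by 0.89 in Ishikawa (SE 0.0898, adjusted p = 7.27e-06) and by 0.40 in T-47D (adjusted p = 2.52e-06) at 8 h, and INSR passed at no time. Of 14 genes that maintain imprints, 1 rose at 8 h in Ishikawa (SMCHD1, 0.30) and 4 rose and 1 fell in T-47D. That is 7.14% and 35.7% of the list, against 22.1% and 29.7% of all tested genes. The T-47D genes included UHRF1 (0.60, adjusted p = 1.28e-07) and DNMT1 (0.30, adjusted p = 4.55e-05), which copy methylation at replication, SMCHD1 (0.36) and TRIM28 (0.21), a corepressor. ARID4B, the gene that fell, stood at -0.14 and was named after its value was seen. The Ishikawa call of SMCHD1 was lost without Ishikawa 0 h replicate 2. In T-47D, the DNMT1 call held without any 1 library but was lost in 1 of the 9 other alternative fits (adjusted p = 0.0974).

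The genes whose pattern was most like that of PEG10 were BZW2, VDAC1, AFF3, AK4 and RABEPK, with Pearson correlations of 0.983, 0.978, 0.949, 0.948 and 0.946 over the 16 libraries (log2 CPM centred within each line, 11901 genes compared). These are descriptions, and the points share library depth and the split of the late Ishikawa libraries. Their log2 fold changes at 8 h in Ishikawa ranged from 0.26 (BZW2) to 1.21 (AFF3) and in T-47D from 0.10 (BZW2) to 0.62 (AFF3). SGCE had a correlation of -0.283 with PEG10, rank 8256, and GRB10 one of 0.541, rank 2401. Within Ishikawa and T-47D alone the correlations were -0.33 and -0.302 for SGCE, and 0.893 and 0.745 for GRB10.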

How the data were processed

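The 16 libraries were made from poly(A) RNA with a directional kit. Read alignment to hg19 used HISAT2 and SAMtools, and the authors deposited, for each line, featureCounts output as raw counts against the UCSC Known Genes, with no normalization. Versions, the strand setting and the handling of multimapping reads are not given in the sources used here. The labels give 3 days of hormone deprivation, and the methods text a longer time. Of the counts from 1 to 10, 71.2% to 74.6% were even, so a count need not be 1 independent fragment.

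The statistics were run with edgeR 4.0.16 (R 4.3.3). The filterByExpr function kept 15787 genes in Ishikawa, 15594 in T-47D and 17090 over both. Library sizes were scaled by TMM. A quasi-likelihood F-test with time as a factor was fitted per line without a replicate block, and p-values were adjusted over all tested genes by the Benjamini-Hochberg method with a threshold of 0.05. Differences between lines were the interaction over all 16 libraries. SEs were derived from the log2 fold change and its F statistic. Non-overlap of libraries between time points was described for named genes only, and its share over all tested genes was not counted. The code was tested on simulated data. Alternatives were DESeq2 1.42.0, RLE scaling, an unfiltered table, a minimum of 10 counts per library, thresholds of 0.01 and 0.1, the replicate block, fits of the compared time points alone, the late libraries as 1 group, and leaving out each library.

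Members and gene lists were chosen with earlier results of these data known. Named genes are the 7 members, the tested neighbours, the imprinted genes that passed against 0 h with the 3 most abundant per line, at most 4 genes of each other list by lowest p, and the 5 most like PEG10. Positions came from GENCODE on GRCh37, and start-site windows from RefSeq on GRCh38.p14. Each replicate pair differed beyond sampling noise (chi-square per gene of 3.7 to 11.4).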

Additional observations from a re-analysis of the deposited data

Results flagged for a closer look

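The response to E2 differed between T-47D and Ishikawa for 9 of the named genes, by the interaction test over 16 libraries. Of all tested genes, 2.67%, 6.03% and 10% differed after 2, 4 and 8 h. Many of the named genes were picked by their change against 0 h in these same libraries, so the 9 cannot be set against these shares. GRB10 responded more in T-47D, by 0.37 after 2 h, 0.43 after 4 h and 0.46 after 8 h on the log2 scale (adjusted p = 0.0158, 0.00234 and 0.000929). GNG11, a neighbour of PEG10, responded more in T-47D by 0.50 at 4 h and 0.80 at 8 h (adjusted p = 0.029 and 0.000342). The 4 h difference of GNG11 was lost without any 1 of Ishikawa 0 h replicate 1, 2 h replicate 1 and both 4 h replicates, T-47D 0 h replicate 2 and 4 h replicate 1, with values from 0.31 to 0.70 over all such fits. PHLDA2 fell in T-47D and stood at 0.13 and 0.32 in Ishikawa (neither passed), with a difference in response of -0.83 at 2 h and -0.85 at 4 h (adjusted p = 0.0155 and 0.00635), and the first was lost without any 1 of Ishikawa 2 h replicate 2 and the T-47D replicates of 0 h and 2 h. Of the genes in the other lists, IGF1R had a lower response in T-47D, with differences of -0.41, -0.46 and -0.50 after 2, 4 and 8 h (adjusted p = 0.0286, 0.00659 and 0.0021), and DAG1 with -0.21 after 4 h and -0.28 after 8 h (adjusted p = 0.0308 and 0.00231). More positive responses in T-47D were those of ARC (2.28 after 2 h, adjusted p = 0.0375), PNMA1 (0.30 after 2 h and 0.33 after 8 h, adjusted p = 0.0247 and 0.00454), DNMT1 (0.38 after 8 h, adjusted p = 0.00141) and UHRF1 (0.44 after 8 h, adjusted p = 0.000527). The 2 h differences of IGF1R, ARC and PNMA1 and the 4 h difference of DAG1 were each lost without T-47D 0 h replicate 2, among other libraries. Those of DNMT1 and UHRF1 at 8 h held without any 1 library. Each was lost in 1 of the 9 other alternative fits (adjusted p = 0.12 and 0.144). The causes were not tested. PEG10 also had different folds in the lines but was chosen for its response, so it is not counted here.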

How the results depend on the processing

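Without 1 library, PEG10 stood between 0.74 and 1.32 after 4 h in Ishikawa, between 0.77 and 1.34 after 8 h, and between 0.36 and 0.52 at 8 h in T-47D, where the late libraries as 1 group gave 0.33. GRB10 in T-47D kept its 3 calls in all of them. SGCE passed at 4 h in T-47D with the replicate block (-0.22, adjusted p = 0.0425), without a filter (-0.21, adjusted p = 0.0418) and at a threshold of 0.1 (-0.22). Same-numbered replicates did not deviate together (correlations of -0.115 to 0.0533 in Ishikawa and -0.0547 to 0.0595 in T-47D). These correlations cannot exclude that same-numbered samples shared a culture. The block also ended the calls of DMD at 4 h (adjusted p = 0.057) and SNTB2 at 2 h (0.0524) in Ishikawa. SGCE from 2 h to 4 h in Ishikawa became -0.0125 with 4 h and 8 h as 1 group.

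Without 1 library, SGCE against 0 h ranged from -0.205 to 0.127 after 2 h, -0.183 to 0.149 after 4 h and -0.251 to 0.0813 after 8 h in Ishikawa, and from -0.325 to -0.108 after 4 h in T-47D. Its steps ranged from -0.0551 to 0.0925 (2 h to 4 h) and -0.137 to 0.00929 (4 h to 8 h) in Ishikawa and from -0.0602 to 0.157 (4 h to 8 h) in T-47D. Its line differences ranged from -0.254 to 0.118 after 2 h and -0.286 to 0.0808 after 8 h, and the baseline difference from -0.249 to 0.106. The step of GRB10 from 4 h to 8 h ranged from -0.0543 to 0.0711 in Ishikawa (negative without 4 h replicate 2 or 8 h replicate 2) and from -0.00821 to 0.099 in T-47D, and MEST after 2 h in Ishikawa from -0.0799 to 0.0184.

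Imprinted genes called in Ishikawa numbered 1, 3 and 5 at 2, 4 and 8 h. A threshold of 0.01 gave 0 at 2 h and 2 at 8 h, and one of 0.1 gave 2 at 2 h and 5 at 4 h. No filter gave 2 at 2 h and 5 at 4 h, and 4 h and 8 h as 1 group gave 6 at 4 h. Leaving out 1 library gave 0 to 2, 1 to 5 and 2 to 5. In T-47D, 14 were called at 4 h at a threshold of 0.1 and 6 at 8 h at 0.01, beside 9 and 10, and 5 to 9 at 4 h without 1 library. The causes were not tested. With 2 replicates per time point, PEG3, MEG3, MEST in T-47D and H19 in Ishikawa were too low for a change to be detectable.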

Other observations

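The high and low pairs of late Ishikawa libraries seen for PEG10 recurred in PHLDA2. The share of all tested genes with this order was not counted, so no link between these genes is drawn. PHLDA2 had 45.5 CPM in 4 h replicate 1 and 45.2 in 8 h replicate 2, against 35.2 in 4 h replicate 2 and 35.0 in 8 h replicate 1. SGCE went the other way by a small margin, with 30.3 and 29.3 CPM in the first pair, both below the 33.1 and 31.6 in the second. PHLDA2 passed neither at 4 h nor at 8 h in Ishikawa (0.32 and 0.30, adjusted p = 0.101 and 0.0964), but did with the 4 libraries as 1 group (0.31, adjusted p = 0.0408).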
